A study of Mus musculus with 16 samples.

Results

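The comparison described here asks whether a high fat diet changed gene expression in mouse white fat differently when the fat lacked the deacetylase SIRT1. All 16 of the 16 microarrays entered it, 4 in each of 4 groups. Every mouse was C57BL6/J, started its diet at 4 weeks of age, stayed on it for 8 weeks and gave its fat at 12 weeks of age. The wild-type groups had no Cre transgene and were fed a low or a high fat diet. The knockout groups carried Cre recombinase under the FABP4 promoter, which deletes Sirt1, and were fed the same diets. No group carried Cre with an intact Sirt1, so that the transgene and the deletion cannot be told apart, and the labels do not name the depot. The labels do not say whether replicates were separate mice, so the spread that p-values measure is that between these samples, which may be technical. Single arrays are given by group and replicate number, WL1 to WL4 for wild type on the low fat diet, WH1 to WH4 for wild type on the high fat diet, and KL1 to KL4 and KH1 to KH4 for the knockout on these diets.

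SIRT1 removes acetyl groups from proteins in a reaction that consumes NAD, and links transcription in fat to the energy state of the cell. FABP4 is a fatty acid carrier of adipocytes, and its promoter is used to drive Cre in fat, although macrophages can express FABP4 as well. A high fat diet enlarges adipocytes, remodels the collagen around them and brings macrophages into the tissue, some of which load with lipid. An interaction measures how far these diet changes depend on the genotype.

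For each gene the diet change was taken as the mean of the high fat arrays minus the mean of the low fat arrays on the log2 scale. The interaction is the diet change in knockout fat minus that in wild-type fat, so that an interaction of -1 on this scale means that the diet fold change was smaller by 1 log2 unit in the knockout. "Lower in knockout" and "higher in knockout" refer to this diet change and not to the level of a gene. Values are given with the standard deviation (SD, n = 4 arrays) for a group, and with the standard error (SE) for a difference. The p-values of limma were adjusted over 12078 genes by the method of Benjamini and Hochberg, and a gene was called where the adjusted value lay under 0.05. With 4 arrays a group, their number limits how precisely any difference can be stated.

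Adipocyte markers checked the tissue. Of 10 markers 8 were measured, and their mean log2 value lay between 12.4 and 13.0 in every array. Skeletal muscle transcripts were counted as present where Tnnt3 had a log2 value of 8 or more. This held for 5 arrays, namely WL3 and WL4, KL2, WH3 and KH4. WH4 lay just under the cut, with Tnnt3 at 7.95, and its mean over 6 muscle markers was 8.04 against 7.91 in KH4. Fits without the arrays holding muscle transcripts left out the 5 arrays and kept WH4. WH4 also held urothelial transcripts, with a mean of 9.95 over 4 markers against 2.44 to 3.81 in the other 15 arrays. Macrophage markers differed between the groups. Their mean over 6 markers ran from 8.93 to 9.58 in wild-type low fat, 9.51 to 9.996 in knockout low fat, 9.86 to 10.5 in wild-type high fat and 10.6 to 10.9 in knockout high fat arrays. In bulk tissue, fewer cells of a type and less RNA per cell cannot be told apart.

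The targeted gene itself gave no interaction. Sirt1 had an interaction of -0.03 (95% confidence interval -0.57 to 0.51, adjusted p = 0.945), with diet changes of -0.46 in wild-type and -0.50 in knockout fat. The position of its probe set relative to the deleted part is not stated in the sources at hand, so this signal checks nothing about the deletion.

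The diet changed 1569 genes differently in the 2 genotypes, which is 13% of those tested. The diet change was lower in knockout for 951 genes (7.87%) and higher for 618 (5.12%). Interactions of at least 1 log2 unit were called for 569 genes in the lower and 270 in the higher direction, and the median size of a called interaction was 1.03. Of the calls, 394 were made again, with the same sign, without the 5 arrays holding muscle transcripts, when 424 genes were called in all. The count moved most with WL2, without which 2382 genes were called, 1183 of them higher in knockout. Without KL1 there were 376 higher calls, and without WH3 there were 396. The split between the directions depended on the scale. Higher calls were 39.4% of the total on the log2 scale, 49.6% with each array centred on its median and 51.9% for differences on the linear scale.

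Over all genes, the diet changes in wild-type and knockout fat had a Pearson correlation of 0.53 across genes, which are not independent replicates. These changes come from separate arrays. Their spread over genes was alike, with an SD of 0.67 in wild-type and 0.65 in knockout fat.

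**Figure D1:**
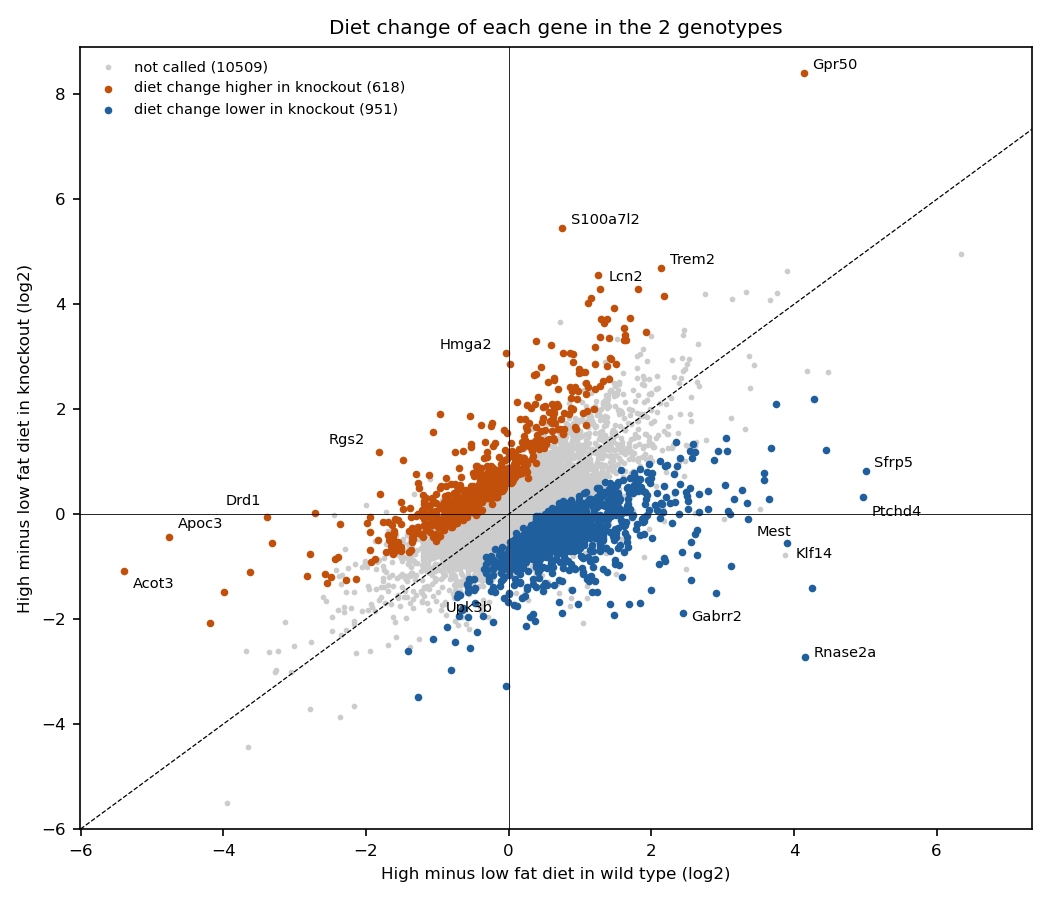
Each point is 1 of 12078 genes, with its diet change (high minus low fat, log2) in wild type on the x axis and in knockout on the y axis; the dashed line marks equal changes. The 951 genes with a lower diet change in knockout lie below the line, many of them to the right of 0 and near 0 on the y axis, and the 618 with a higher change lie above it.

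The most common form of interaction was a rise in wild-type fat that was not called in knockout fat. It made up 483 of the 951 lower interactions (50.8%), and 57 more rose in both genotypes. A fall in knockout fat alone made up 244 (25.7%), and 111 (11.7%) rose in wild type and fell in knockout. The 618 higher interactions held 244 genes (39.5%) that fell in wild type alone and 208 (33.7%) that rose in knockout alone. Another 82 (13.3%) rose in both genotypes. Genes that fell in wild type and rose in knockout numbered 21 (3.4%).

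Another view of the same calls is which group mean stood farthest from the mean of the other 3. Among the lower interactions this was wild-type low fat, with the low level, for 515 genes (54.2%). It was knockout high fat, again with the low level, for 229 (24.1%). Among the higher interactions it was knockout high fat for 270 genes (43.7%) and wild-type low fat for 255 (41.3%), both with the high level. Over all genes tested, wild-type low fat was farthest for 41.5% and knockout high fat for 34.6%. The 2 remaining groups, wild-type high fat and knockout low fat, were farthest for 12.4% and 11.5% of all genes. These shares describe the group means and carry no test. For a given farthest group, the sign of the interaction fixes by arithmetic whether its level is the high or the low one.

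**Figure D2:**
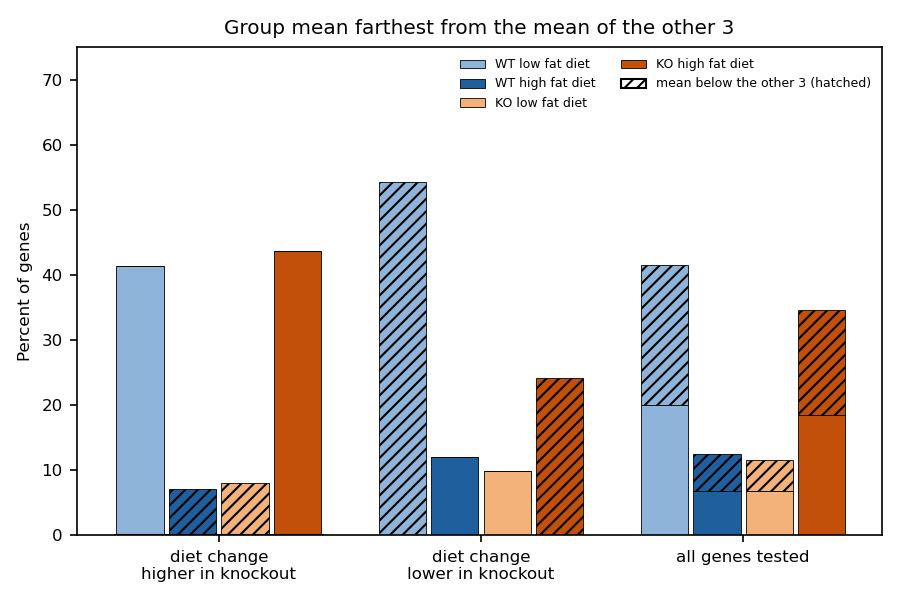
Bars give the percent of genes for which each group mean (WT, wild type; KO, knockout; low or high fat diet) lay farthest from the mean of the other 3, with hatched bars for means below the others. Wild-type low fat arrays held the low extreme for 54.2% of the lower interactions, and knockout high fat arrays the high extreme for 43.7% of the higher ones. In the called sets the sign of the interaction fixes whether a farthest group is high or low.

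Some genes of growing fat rose with the diet in wild-type fat and had high levels in the knockout under either diet. Sfrp5, a secreted inhibitor of Wnt proteins made by adipocytes, read 6.83, 7.37, 6.68 and 7.10 in wild-type low fat and 11.68, 12.14, 12.14 and 12.07 in wild-type high fat arrays. In knockout fat it read 11.77, 11.16, 11.45 and 10.57 on the low fat and 12.10, 11.87, 12.15 and 12.12 on the high fat diet. All 4 wild-type low fat arrays thus lay over 3 log2 units below every other array. The diet raised Sfrp5 by 5.01 in wild-type and by 0.82 in knockout fat, an interaction of -4.19 (SE 0.30, limma adjusted p = 1.57e-06).

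Mest, an imprinted gene whose expression follows the enlargement of adipocytes, had the same form. Its values were 9.71, 9.41, 8.87 and 9.07 in wild-type low fat arrays against 12.40, 12.70, 12.76 and 12.62 on the high fat diet. The knockout arrays read 12.53, 12.35, 11.99 and 12.14 on the low fat and 11.98, 12.26, 12.14 and 12.25 on the high fat diet, so that the diet groups overlapped in knockout fat only. The interaction was -3.45 (SE 0.24, limma adjusted p = 1.57e-06). Klf14, an imprinted transcription factor of adipocytes, read 4.29 to 5.57 in wild-type low fat and 8.12 to 9.39 in wild-type high fat arrays. It read 8.27 to 9.10 and 7.68 to 8.22 in knockout fat on the low and high fat diets. Its interaction was -4.46 (SE 0.40, limma adjusted p = 1.1e-05).

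Leptin, the hormone by which fat signals its stores, showed a smaller interaction. Lep was 11.65 ± 0.37 in wild-type low fat and 13.14 ± 0.18 in wild-type high fat, against 12.82 ± 0.12 and 13.16 ± 0.21 in knockout fat. Its interaction was -1.15 (SE 0.23, limma adjusted p = 0.00524). Npr3, the clearance receptor for natriuretic peptides, had an interaction of -1.26 and was 11.91 ± 0.47 in wild-type low fat against group means of 13.08 to 13.14 elsewhere. In all, 4 of 12 tested genes linked to growing fat mass were called, all with a lower diet change in knockout, and their list had a median interaction of -0.47. Over all genes tested the median was -0.01. The 4 fat mass calls were also 4 without the arrays holding muscle transcripts. Of all genes tested, 5.12% were called higher and 7.87% lower, the background for this and each later list count of interactions.

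Among other genes with the largest lower interactions, Ptchd4 and Prkag3 had the same layout. Ptchd4 had an interaction of -4.64 (SE 0.36), and its wild-type low fat arrays all lay under a log2 value of 4, where differences depend on background correction. With values under 4 set to 4 it was -4.08, while its probe sets ran from -4.64 to -0.71. Prkag3, a regulatory subunit of the energy sensor AMPK, read 5.04 to 5.45 in wild-type low fat arrays and 7.71 to 9.41 in all others, with an interaction of -3.36 (SE 0.42). Peg10, an imprinted gene derived from a retrotransposon, spread widely within groups, and its wild-type low fat arrays overlapped those of the knockout. It read 3.60, 7.11, 4.93 and 8.30 in wild-type low fat and 9.30, 11.12, 10.60 and 9.97 in wild-type high fat arrays. Knockout fat gave 9.53, 10.17, 9.32 and 7.75 on the low and 6.61, 8.39, 8.31 and 7.81 on the high fat diet. The interaction of -5.67 therefore had an SE of 1.14 (limma adjusted p = 0.00512). Bcat1, which starts the breakdown of branched-chain amino acids in the cytosol, had one of -2.42 (SE 0.54). Its call ended without the arrays holding muscle transcripts, with the mean of its probe sets and on the linear scale. Of 22 tested genes of branched-chain amino acid breakdown, 2 were called lower and 1 higher, beside 7.87% and 5.12% of all genes tested. The higher call was Bcat2, at 1.29 (SE 0.36), which ended without the arrays holding muscle transcripts or without any of 5 arrays in turn.

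**Figure D3:**
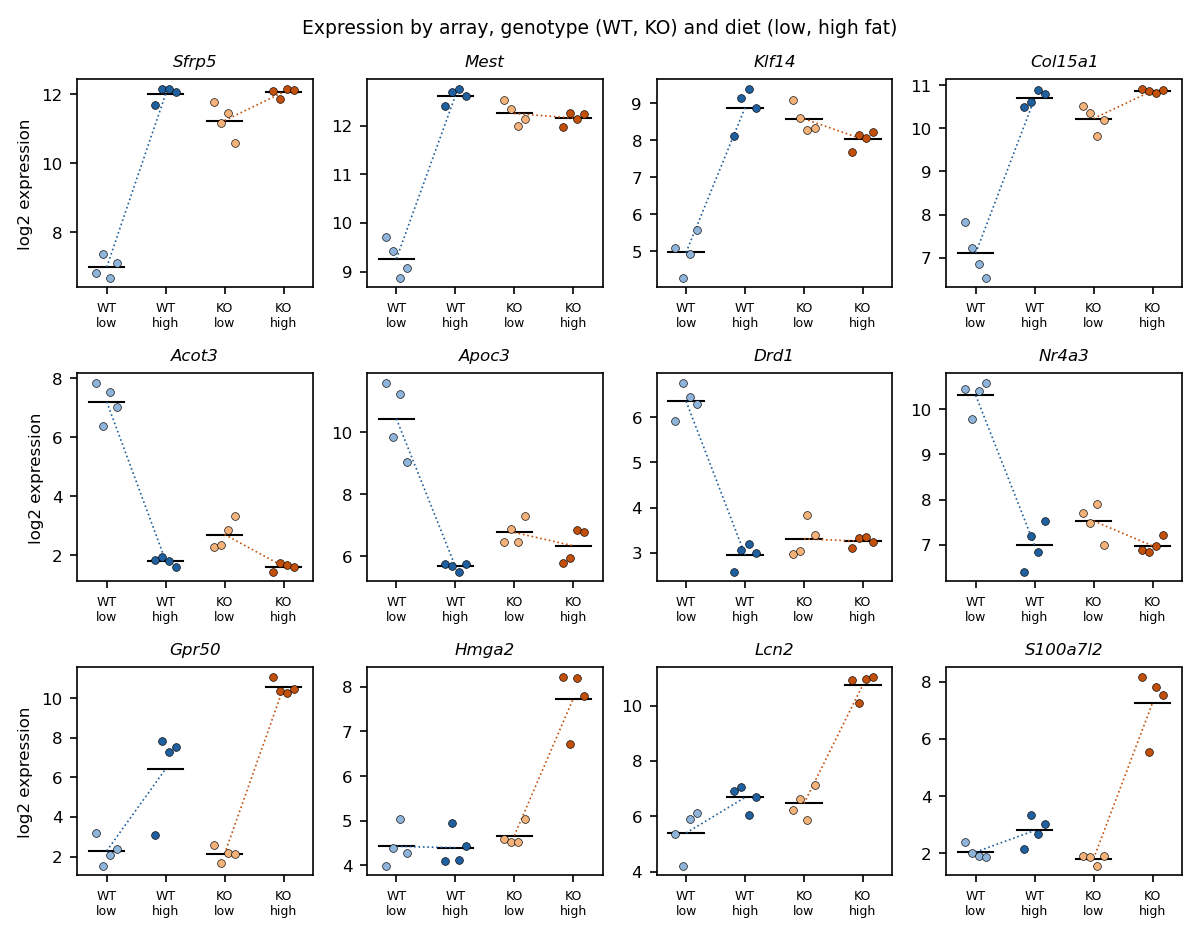
Log2 expression in each array (points) with the group mean (bar) for 12 genes in wild-type (WT) and knockout (KO) fat on the low and high fat diets; dotted lines join the diets within a genotype. Sfrp5, Mest, Klf14 and Col15a1 are low in wild-type low fat arrays, Acot3, Apoc3, Drd1 and Nr4a3 are high there, and Gpr50, Hmga2, Lcn2 and S100a7l2 are highest in knockout high fat arrays.

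Some of the collagen and matrix genes, which form the scaffold around adipocytes, gained less with the diet in knockout fat. Of 29 tested, 9 had a lower and 0 a higher interaction, with a median of -0.69. Before any test, 2 of the 29 had an interaction above 0. Col15a1, a basement membrane collagen, read 7.82, 7.22, 6.86 and 6.53 in wild-type low fat and 10.49, 10.60, 10.90 and 10.78 in wild-type high fat arrays. It read 10.52, 10.35, 9.82 and 10.20 in knockout low fat and 10.91, 10.86, 10.82 and 10.89 in knockout high fat arrays. The wild-type low fat arrays alone stood apart, and the interaction was -2.94 (SE 0.30, limma adjusted p = 4.2e-05).

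Chains of collagen VI, which surrounds adipocytes as microfibrils, behaved alike. Col6a1 was 10.88 ± 0.07 in wild-type low fat and 12.23 ± 0.10 in wild-type high fat, against 11.78 ± 0.18 and 11.97 ± 0.14 in knockout fat, an interaction of -1.15 (SE 0.16). For Col6a2 it was -1.45 (SE 0.24), for Col6a3 -1.18 (SE 0.31), for the collagen V chain Col5a3 -1.64 (SE 0.24) and for fibronectin, Fn1, -1.15 (SE 0.24). The limma adjusted p-values lay between 0.000342 and 0.0229 for these 5 genes. In the wild type, 22 of the 29 rose with the diet (20.5% of all genes tested did), and in the knockout 10 did (15.6% of all genes). On the low fat diet 15 of them were higher in knockout than in wild-type fat (11.7% of all genes were). The call of Col6a3 ended on the linear scale and without the arrays holding muscle transcripts. The matrix count was 5 without the arrays holding muscle transcripts and 15 without KL4. Adamts5, which cleaves matrix proteoglycans, also rose in wild type alone and had an interaction of -1.79 (SE 0.25, limma adjusted p = 0.000442).

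The Wnt pathway controls whether progenitors become adipocytes. It held 8 of 20 tested members with a lower interaction and 0 with a higher one, and its median was -0.76. Among the ligands, Wnt5a read 8.03 to 8.96 in wild-type low fat, 8.98 to 9.44 in wild-type high fat, 8.78 to 9.17 in knockout low fat and 7.53 to 8.54 in knockout high fat arrays. It rose by 0.78 in wild type and fell by 0.80 in knockout, an interaction of -1.57 (SE 0.31, limma adjusted p = 0.00418). Wnt5b fell by 0.81 in knockout, and its diet change in wild type was 0.41. Of the receptors, Fzd2 had an interaction of -1.35 and Fzd4 of -0.63. The secreted inhibitors Sfrp2, Sfrp4 and Sfrp5 had interactions of -1.63, -2.06 and -4.19. The Sfrp2 call ended without KL2, KL3, WH3 or KH1, and that of Fzd2 with the mean of its probe sets and with array weights. Axin2, a target gene and feedback inhibitor of the pathway, was at -1.02 (limma adjusted p = 0.0407), and its call ended without any of 10 arrays in turn. Leaving out 1 array at a time gave 6 to 10 calls in the list, and leaving out the arrays with muscle transcripts gave 3, with the calls of Wnt5a, Wnt5b, Fzd4, Sfrp2 and Axin2 lost.

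Of 25 genes of the TGF-beta, BMP and activin families, 4 had a lower interaction, with a list median of -0.36. Bmp4, a signal that commits precursors to the adipocyte lineage, read 7.59, 7.31, 6.71 and 7.43 in wild-type low fat and 8.02, 7.72, 7.80 and 8.46 in wild-type high fat arrays. In knockout fat it read 7.66, 8.08, 7.96 and 7.60 on the low and 6.05, 6.61, 7.37 and 6.18 on the high fat diet, so that the diet groups did not overlap in either genotype and were ordered oppositely. Its interaction was -2.02 (SE 0.37, limma adjusted p = 0.00293). Inhbb, an activin subunit made by adipocytes, rose by 1.48 in wild type, its diet change in knockout was -0.45, and its interaction was -1.93 (SE 0.46). Without WL4 the list had 7 calls. Without the muscle-bearing arrays all 4 calls, those of Bmp4, Inhbb, Tgfb3 and Smad7, were lost, and 1 other gene was called. The call of Smad7 also ended without any of 12 arrays in turn.

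Some markers of adipocyte progenitors and of mural cells also had a lower diet change in knockout. Of 13 progenitor genes 5 had a lower interaction (median -0.89). Cd34, a surface glycoprotein of progenitors and endothelium, was 10.47 ± 0.20 and 11.18 ± 0.12 in wild-type fat on the low and high fat diets, against 11.17 ± 0.30 and 10.94 ± 0.10 in knockout fat. Its interaction was -0.94 (SE 0.20). Pi16, a marker of early fibroblast-like progenitors, was at -1.42 (SE 0.38), and Cd55, a complement inhibitor on these cells, at -1.10 (SE 0.21). The progenitor count was 9 without WL2, 8 without KL4 and 1 without the arrays holding muscle transcripts, when Cd34 and Cd55 lost their calls. Of 10 smooth muscle and pericyte genes 3 were called lower. They were Acta2, Rgs5 and Notch3, with interactions of -1.02, -0.76 and -1.29. The Acta2 call ended without WL1 or KL2, and that of Rgs5 without the arrays holding muscle transcripts.

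**Figure D4:**
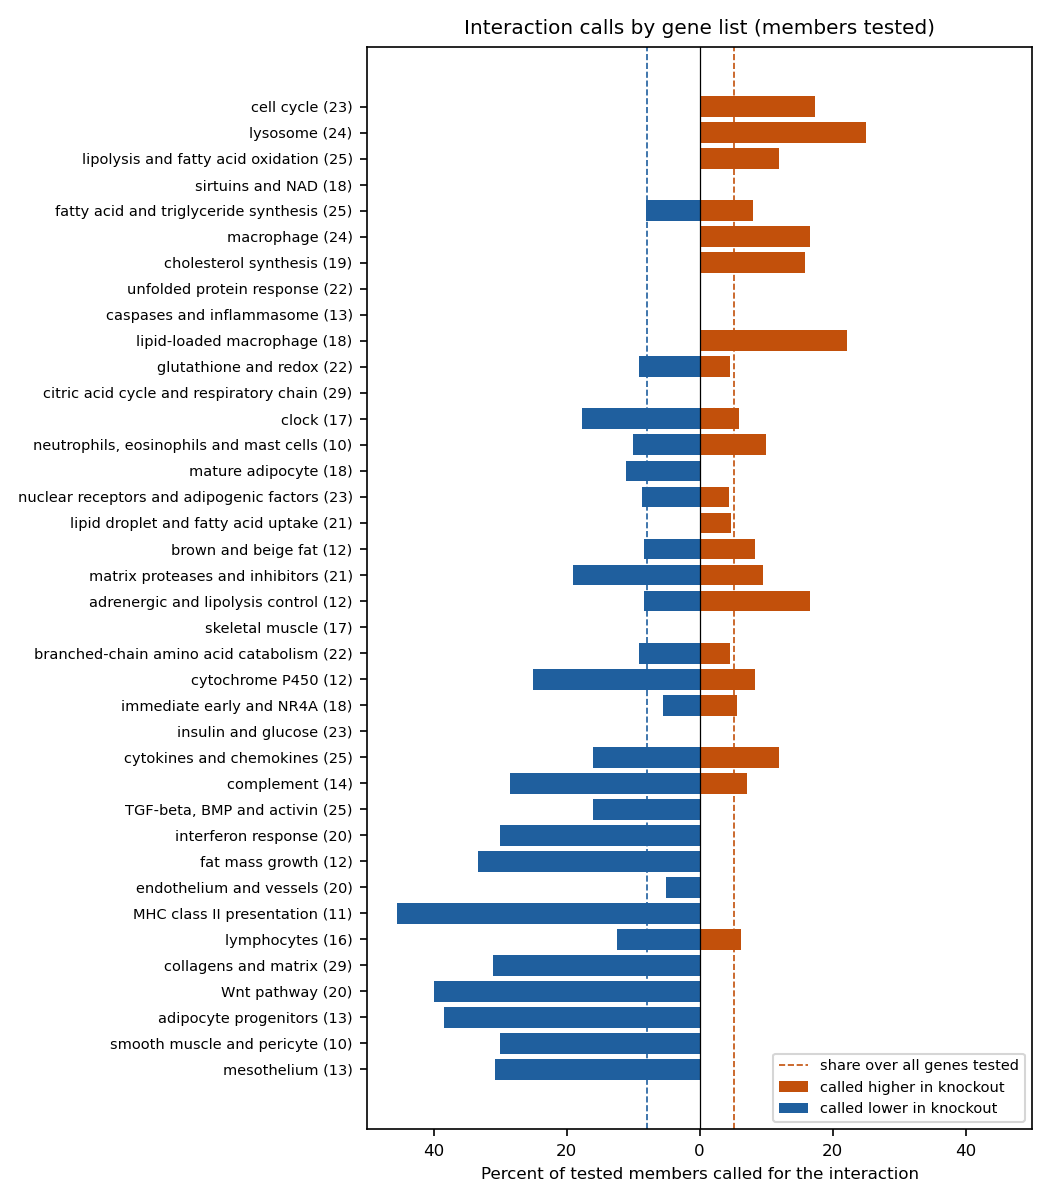
For each gene list with at least 10 tested members (number in brackets), bars give the percent of members called for the interaction, to the right for a higher and to the left for a lower diet change in knockout, ordered by the list's median interaction. Dashed lines mark the shares over all genes tested, 5.12% and 7.87%; lists of matrix, Wnt and MHC class II genes hold lower calls alone, and lists of macrophage, lysosome and cell cycle genes higher calls alone.

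A second set of genes fell with the diet in wild-type fat from a level that knockout fat did not have on the low fat diet. Acot3, a peroxisomal thioesterase that splits acyl-CoA, read 7.84, 6.38, 7.54 and 7.03 in wild-type low fat arrays. It lay under a log2 value of 4 in every other array, so that only the wild-type low fat group carried a signal above that level. Its interaction was 4.30 (SE 0.38, limma adjusted p = 9.03e-06) and 3.20 with values under 4 set to 4.

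Apoc3, an apolipoprotein that slows the clearance of triglyceride-rich particles, read 11.59, 9.85, 11.24 and 9.04 in wild-type low fat and 5.76, 5.68, 5.49 and 5.74 in wild-type high fat arrays. The knockout arrays read 6.45, 6.88, 6.44 and 7.28 on the low and 5.78, 5.92, 6.85 and 6.78 on the high fat diet. The wild-type low fat arrays lay above all 12 others, and the interaction was 4.33 (SE 0.61, limma adjusted p = 0.000442). This call ended on the linear scale. Apoc4 and Apoc2, of the same apolipoprotein C family, were also called, with interactions of 2.88 (SE 0.65) and 2.51 (SE 0.33). Apoc2 was chosen after its values were seen, and the Apoc4 call ended without the arrays holding muscle transcripts. Apoc4 rose by 1.91 in knockout, while its diet change of -0.96 in wild type was not called. Apoc2, which activates lipoprotein lipase, fell by 1.48 in wild type and rose by 1.03 in knockout.

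Some receptor and signalling genes likewise had their highest mean in wild-type low fat arrays. Drd1, the D1 dopamine receptor, read 5.91, 6.75, 6.45 and 6.29 in wild-type low fat and 2.58 to 3.84 in all other arrays, an interaction of 3.33 (SE 0.28, 2.35 with values under 4 set to 4). Nr4a3, an orphan nuclear receptor induced by adrenergic signals, read 10.44, 9.78, 10.41 and 10.58 in wild-type low fat and 6.40 to 7.91 in all others, an interaction of 2.76 (SE 0.34, limma adjusted p = 0.000168). Rgs2, which shortens signalling through G proteins, read 10.33 to 11.67 in wild-type low fat and 8.89 to 10.23 in wild-type high fat arrays. In knockout fat it read 9.02 to 9.60 on the low and 10.13 to 10.94 on the high fat diet. It was one of the 21 genes that fell in wild type (by 1.82) and rose in knockout (by 1.18), with an interaction of 3.00 (SE 0.45).

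A few genes of lipid handling fell with the diet in wild type and had a higher diet change in knockout. Of 25 lipolysis and fatty acid oxidation genes 3 were called, all higher, with a median of 0.27. Beside Acot3 these were Crat, a carnitine acetyltransferase, at 1.27 (SE 0.30), and Abhd5, the activator of the triglyceride lipase ATGL, at 0.92 (SE 0.20). Abhd5 was 11.75 ± 0.24 and 11.08 ± 0.06 in wild-type fat on the low and high fat diets and 11.11 ± 0.30 and 11.36 ± 0.09 in knockout fat. Among 25 fatty acid and triglyceride synthesis genes 2 were higher and 2 lower, beside 5.12% and 7.87% of all genes tested. Mlxipl, which encodes the sugar-sensing factor ChREBP, fell by 1.55 in wild type and by 0.53 in knockout (interaction 1.01, SE 0.26). Fads2, a desaturase of polyunsaturated fatty acids, rose by 0.98 in wild type and had an interaction of -1.32 (SE 0.24), while Mogat2, which makes diacylglycerol, was at -1.44 (SE 0.35). The higher synthesis count was 4 without WL2, 6 without KL4 and 1 without either KL1 or KL2. The calls of Crat, Abhd5, Mlxipl and Fads2 ended without the muscle-bearing arrays, when the oxidation list kept 1 call. None of 29 tested genes of mitochondrial respiration (citric acid cycle and electron transport), and none of 23 of insulin and glucose handling, was called by limma. Leaving out 1 array at a time gave up to 1 call in the first of these lists and up to 2 in the second, the latter without WL2 or KL4.

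Some cholesterol genes rose with the diet in knockout fat, and others had lower values on the high fat diet in wild type. Of 19 tested in cholesterol synthesis 3 had a higher interaction and 0 a lower one, with a median of 0.14. Cyp51, the lanosterol demethylase, read 8.85 to 9.94 in wild-type low fat and 8.91 to 9.09 in wild-type high fat arrays. Its knockout values were 8.61 to 8.95 on the low and 9.28 to 9.86 on the high fat diet, without overlap, and the interaction was 1.29 (SE 0.27, limma adjusted p = 0.00606). Pmvk, the phosphomevalonate kinase, was at 1.51 (SE 0.39). It read 9.50 to 10.79 in wild-type low fat and 8.84 to 9.05 in wild-type high fat arrays. Its knockout values overlapped, at 8.75 to 10.07 on the low and 9.25 to 9.70 on the high fat diet. In the knockout 11 of the 19 rose with the diet, against 4 in the wild type, where the backgrounds were 15.6% and 20.5%. Npc1, which moves cholesterol out of lysosomes, read 9.19 to 10.02 in wild-type low fat, 7.65 to 8.36 in wild-type high fat and 8.09 to 8.75 in knockout arrays. Its interaction was 2.19 (SE 0.26, limma adjusted p = 0.000133). The list count was 6 without KL4. Without the arrays holding muscle transcripts it was 1, and the call of Pmvk was lost.

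Another set rose with the diet more in knockout than in wild-type fat. Gpr50, an orphan receptor related to the melatonin receptors, had the largest diet change of the genes named here. It read 3.17, 1.53, 2.06 and 2.40 in wild-type low fat and 2.56, 1.69, 2.17 and 2.13 in knockout low fat arrays. On the high fat diet it read 3.07, 7.83, 7.28 and 7.54 in wild type, against 11.07, 10.37, 10.25 and 10.47 in the knockout. WH1 thus stayed at the low fat level, and the interaction of 4.26 had an SE of 1.05 (limma adjusted p = 0.0155). Gpr50 rose by 4.14 in wild-type and by 8.40 in knockout fat. All low fat arrays lay under 4, and with values under 4 set to 4 the interaction was 3.88. The call of Gpr50 ended without the arrays holding muscle transcripts.

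Hmga2, a chromatin protein of growing and undifferentiated cells, changed in knockout fat alone. Its values were 3.99 to 5.05 in wild-type low fat, 4.09 to 4.96 in wild-type high fat and 4.51 to 5.03 in knockout low fat arrays. In knockout high fat arrays they were 8.22, 6.72, 8.20 and 7.79, above all others, and the interaction was 3.10 (SE 0.43, limma adjusted p = 0.000405). S100a7l2, of the S100 calcium-binding proteins, lay under 4 in every array of the other groups and read 8.18, 5.54, 7.82 and 7.53 in knockout high fat arrays. Its interaction was 4.71 (SE 0.58), or 3.27 with values under 4 set to 4. Lcn2, a secreted carrier of bacterial siderophores that fat releases in inflammation, rose by 1.28 in wild-type and by 4.28 in knockout fat, from 6.47 ± 0.54 to 10.75 ± 0.44 in the latter. Its interaction was 3.00 (SE 0.53, limma adjusted p = 0.00225), a call that ended without the arrays holding muscle transcripts. Zranb3, a DNA translocase that remodels stalled replication forks, had an interaction of 2.97 (SE 0.48).

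Immune genes moved in both directions. Some receptors of lipid-loaded and scavenging macrophages rose more in knockout fat. Trem2, a lipid receptor of macrophages, read 4.74, 5.03, 4.71 and 4.91 in wild-type low fat and 6.12, 8.08, 5.86 and 7.89 in wild-type high fat arrays. It read 5.66, 5.84, 5.23 and 5.31 in knockout low fat and 10.39, 10.16, 10.40 and 9.86 in knockout high fat arrays, which lay above all others. The interaction was 2.55 (SE 0.55, limma adjusted p = 0.0071). Olr1, a receptor for oxidised low density lipoprotein, had an interaction of 2.48 (SE 0.46) and read 8.86 to 9.57 in knockout high fat arrays against at most 5.69 elsewhere. Msr1, the class A scavenger receptor, was at 1.81 (SE 0.40) and Clec7a, a receptor for fungal glucans, at 0.87 (SE 0.20). The chemokine genes Ccl3 and Ccl4 had interactions of 2.90 (SE 0.47) and 1.56 (SE 0.20). Ccl4 lay under 4 outside the knockout high fat arrays, and its interaction was 0.40 with values under 4 set to 4.

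The macrophage lists were called in part. Of 24 macrophage genes 4 had a higher and 0 a lower interaction (median 0.21), and of 18 lipid-loaded macrophage genes 4 had a higher and 0 a lower one (median 0.12). Most of the macrophage genes rose in both genotypes, with counts of 17 for the wild type and 19 for the knockout, beside backgrounds of 20.5% and 15.6%. The first count was 2 without WH3 or KH1. The second was also 2 without either of these, or without WL3. Without the arrays holding muscle transcripts the counts were 1 and 0, with the calls of Trem2, Olr1 and Msr1 lost. On the linear scale they were 9 and 6. The 6 macrophage markers given at the outset were also higher on the high fat diet in both genotypes. The median of their array means was 9.43 on the low and 10.2 on the high fat diet in wild type. In knockout fat it was 9.75 and 10.7. Their part in the result was not tested.

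Lysosome genes held 6 higher calls of 24 (median 0.28), among them Npc1 and Gla, which digests glycolipids, at 1.71 (SE 0.37). Probe sets of Gla disagreed, from -0.02 to 1.71, and its call ended with their mean and without the muscle-bearing arrays. The lysosome count fell to 2 without WL3, KL3, WH3 or KH1, and to 3 without any of 6 other arrays. It was 1 without the muscle-bearing arrays. Cell cycle genes had 4 higher calls of 23 and a median of 0.56. In wild type 20 of the 23 rose with the diet (20.5% of all genes did) and in knockout all 23 did (15.6%). Bub1, a kinase of the spindle checkpoint, read 2.00 to 2.56 in wild-type low fat, 3.20 to 4.31 in wild-type high fat, 2.64 to 2.84 in knockout low fat and 5.31 to 6.17 in knockout high fat arrays, an interaction of 1.53 (SE 0.33, limma adjusted p = 0.0081). The cell cycle count was 1 without WH3 or KH1. It was 2 without WL1 or WL3, KL3, WH1 or KH3 or KH4. It was 0 without the muscle-bearing arrays and 14 on the linear scale.

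**Figure D5:**
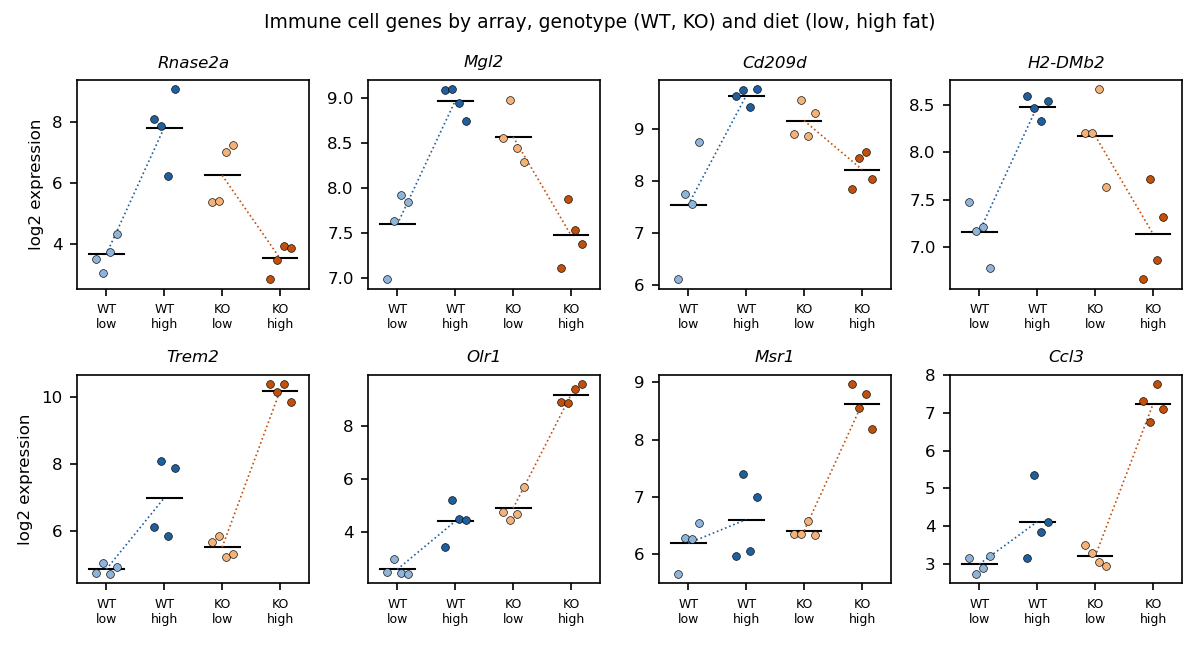
Log2 expression of 8 immune cell genes in each array (points) with the group mean (bar), for wild-type (WT) and knockout (KO) fat on the low and high fat diets. Rnase2a, Mgl2, Cd209d and H2-DMb2 rise with the diet in wild type and have lower means on the high fat diet in knockout, whereas Trem2, Olr1, Msr1 and Ccl3 are highest in knockout high fat arrays.

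Some markers of other myeloid cells moved oppositely to these. The largest interaction of all named genes was that of Rnase2a, an eosinophil-type ribonuclease. It read 3.50, 3.07, 3.76 and 4.34 in wild-type low fat and 8.11, 7.86, 6.25 and 9.08 in wild-type high fat arrays. In knockout fat it read 5.37, 5.41, 7.01 and 7.26 on the low and 2.85, 3.48, 3.93 and 3.87 on the high fat diet. The diet groups did not overlap in either genotype and were ordered oppositely. It rose by 4.16 in wild type and fell by 2.73 in knockout, an interaction of -6.89 (SE 0.75, limma adjusted p = 7.61e-05), or -6.00 with values under 4 set to 4.

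Some C-type lectins of tissue macrophages and dendritic cells also had a lower diet change in knockout, unlike Clec7a above. Mgl2, which binds galactose on glycoproteins, read 6.98, 7.63, 7.92 and 7.84 in wild-type low fat and 9.09, 9.10, 8.95 and 8.74 in wild-type high fat arrays. It read 8.56, 8.98, 8.44 and 8.29 in knockout low fat and 7.11, 7.88, 7.53 and 7.38 in knockout high fat arrays. Its interaction was -2.48 (SE 0.29, limma adjusted p = 0.000148). Cd209a, a mouse relative of the dendritic cell lectin DC-SIGN, rose by 1.59 in wild type and fell by 1.20 in knockout, with an interaction of -2.79 (SE 0.57). Cd209b and Cd209d had interactions of -2.33 (SE 0.61) and -3.06 (SE 0.53). Mgl2, Cd209b and Cd209d were chosen after their values were seen. Siglecf, an eosinophil receptor, was at -2.46 (SE 0.44). Its values lay near 4, and with values under 4 set to 4 the interaction was -1.14 and no longer called. Of 10 tested genes of neutrophils, eosinophils and mast cells, Siglecf was the 1 lower call (7.87% of all genes tested). Elane, a neutrophil elastase, was the 1 higher call (5.12%), at 0.99 (SE 0.27), and the list median was 0.007. The Elane call ended with values under 4 set to 4 and without the arrays holding muscle transcripts. Cd2, an adhesion receptor of T cells, rose by 1.21 in wild type and fell by 0.85 in knockout (interaction -2.06, SE 0.28). Of 16 tested lymphocyte genes 2 were called lower, Cd2 and Gzma, and 1 higher, Prf1 (7.87% and 5.12% of all genes tested). Gzma had an interaction of -1.91 (SE 0.55), and its diet change of 0.42 in knockout was not called. The calls of Gzma and Prf1 ended without any of 6 and 11 arrays in turn. Both also ended without the arrays holding muscle transcripts. Ccr2, the receptor that draws monocytes into tissue, rose by 1.65 in wild type, with a diet change of 0.16 in knockout (interaction -1.49, SE 0.28). T, B and NK cell markers had a mean log2 value of 4.06 to 5.42 in the 16 arrays.

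Genes that present antigen on MHC class II had the highest share of calls among the lists with 10 or more tested members. Of 11 tested, 5 had a lower interaction and 0 a higher one, with a median of -0.58. In wild type 9 of the 11 rose with the diet (20.5% of all genes did). In knockout 2 did, a share near the 15.6% over all genes. H2-DMb2, a chain of the chaperone that loads peptides, read 7.48, 7.17, 7.21 and 6.77 in wild-type low fat and 8.59, 8.46, 8.33 and 8.55 in wild-type high fat arrays. It read 8.20, 8.21, 8.66 and 7.63 in knockout low fat and 6.66, 7.71, 6.86 and 7.31 in knockout high fat arrays. It therefore rose by 1.33 in wild type and fell by 1.04 in knockout, an interaction of -2.37 (SE 0.33, limma adjusted p = 0.000383). Its partner chain H2-DMa was at -1.28 (SE 0.25) and H2-Ob, which restrains the chaperone, at -1.72 (SE 0.36). H2-Aa, a chain of the class II molecule itself, was 11.53 ± 0.11 on the low and 12.27 ± 0.14 on the high fat diet in wild type, against 12.12 ± 0.16 and 12.20 ± 0.13 in the knockout, an interaction of -0.66 (SE 0.16). Without the arrays holding muscle transcripts 1 call was left, and the calls of H2-DMa, H2-Ob and H2-Aa were lost. The H2-Aa call also ended with the mean of its probe sets, and 1 of its 3 tested probe sets was called on its own.

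Of 20 interferon-induced genes tested, which restrict viral replication, 7 rose with the diet in wild type (20.5% of all genes did). In knockout 1 rose (15.6% of all genes) and 3 fell, a share near the 13.5% over all genes. For the interaction 6 had a lower and 0 a higher interaction, and the list median was -0.43. Ifit1 read 7.28, 7.22, 7.86 and 7.20 in wild-type low fat and 8.19, 8.52, 7.66 and 8.24 in wild-type high fat arrays. The knockout arrays gave 8.62, 8.75, 8.01 and 7.74 on the low and 7.55, 7.66, 7.81 and 7.71 on the high fat diet, which overlapped. The interaction was -1.36 (SE 0.32, limma adjusted p = 0.0118). Ifit2 rose by 0.64 in wild type and fell by 0.57 in knockout (interaction -1.22, SE 0.27), and Ifit3 was at -0.90 (SE 0.20). Ddx58, which encodes the RNA sensor RIG-I, was at -1.01 (SE 0.17, limma adjusted p = 0.00144), and Gbp3, a guanylate-binding protein, at -1.37 (SE 0.34). The call of Usp18, which dampens interferon signalling, at -1.01, ended without any of 7 arrays in turn. Leaving out 1 array at a time gave 5 or 6 calls, and leaving out the 5 arrays with muscle transcripts gave 2, those of Ifit1 and Ddx58.

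The promoters of these genes were searched for the interferon-stimulated response element, spelled GAAA, any 2 bases and GAAA, on both strands of the 250 bases before the start site. RefSeq promoters (GRCm38.p6) were found for 17 of the 20 genes. The element was present in 9 of the 17, and in 3 of the 5 called genes with a promoter, against 3.22% of 9738 tested genes and 2.98% of 32851 promoters. The last 150 bases before the start of Ifit1 (chr19:34640739-34640888), Ifit3 (chr19:34583379-34583528) and Gbp3 (chr3:142559894-142560043), all on the plus strand, show it in capitals. There it reads TTTC, any 2 bases and TTTC, its form on the opposite strand, and the 2 copies in Gbp3 overlap.
Ifit1: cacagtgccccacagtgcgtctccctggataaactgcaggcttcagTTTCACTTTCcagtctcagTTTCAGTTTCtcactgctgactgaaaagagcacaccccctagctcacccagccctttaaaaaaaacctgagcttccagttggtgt
Ifit3: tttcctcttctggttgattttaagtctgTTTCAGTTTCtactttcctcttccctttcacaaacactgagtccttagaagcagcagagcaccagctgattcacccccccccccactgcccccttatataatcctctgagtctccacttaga
Gbp3: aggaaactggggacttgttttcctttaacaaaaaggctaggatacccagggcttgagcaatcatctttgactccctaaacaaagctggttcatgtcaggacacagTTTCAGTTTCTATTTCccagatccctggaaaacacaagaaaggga
A match is a description of the sequence and not a measured binding site. The promoters of cell cycle genes were searched in the same way for the E2F site, spelled TTTCCCGC or TTTGGCGC. It was found in 2 of 19 and in 0 of the 4 called ones, against 2.82% of tested genes.

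Genes outside the immune lists also moved in opposite directions. Of the 132 genes called for diet in both genotypes with opposite signs, 111 rose in wild type and fell in knockout. Gabrr2, a subunit of a GABA receptor, read 5.53, 6.03, 6.50 and 7.38 in wild-type low fat and 8.80, 8.83, 8.99 and 8.59 in wild-type high fat arrays. It read 9.68, 9.05, 9.69 and 9.71 in knockout low fat and 7.87, 7.92, 7.59 and 7.21 in knockout high fat arrays. The diet groups did not overlap in either genotype, and the interaction was -4.33 (SE 0.42, limma adjusted p = 1.96e-05). Slc1a1, a glutamate transporter, rose by 1.48 in wild type and fell by 1.93 in knockout (interaction -3.40, SE 0.54). Disp2, a relative of the protein that releases hedgehog ligands, rose by 1.68 and fell by 1.72 (interaction -3.40, SE 0.60). Ankrd29 and Ripor2 had interactions of -3.45 (SE 0.44) and -3.13 (SE 0.57). The call of Ripor2 ended without the arrays holding muscle transcripts. Flt4, the growth factor receptor of lymphatic vessels, rose by 0.77 in wild type and fell by 0.72 in knockout (interaction -1.49, SE 0.35). It was the only 1 of 20 endothelial genes called, beside 7.87% of all genes tested called lower. That count rose to 3 without WL2 or KH4, and to 2 without WL1, WL3 or WL4, KL4 or WH1.

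Complement genes were called in both directions. Of 14 tested, 4 had a lower and 1 a higher interaction (median -0.36), beside 7.87% and 5.12% of all genes tested. Cfb, the factor B of the alternative pathway, and C6, of the membrane attack complex, had interactions of -1.28 (SE 0.19) and -1.89 (SE 0.29), with limma adjusted p-values of 0.000622 and 0.000757. Cfi, the protease that inactivates C3b and C4b, rose by 2.90 in knockout fat and had an interaction of 2.00 (SE 0.28). It lay under 4 outside the knockout high fat arrays, and its interaction was 1.98 with values under 4 set to 4. The higher count was 2 without WL1 or WH2. Cytokines and chemokines held 3 higher calls of 25, namely Ccl3, Ccl4 and Lcn2, and 4 lower ones, with a median of -0.30. Cxcl9, a chemokine induced by interferon gamma, was 10.50 ± 0.23 on the low and 10.70 ± 0.24 on the high fat diet in wild type, against 10.62 ± 0.49 and 9.58 ± 0.38 in the knockout. Its interaction was -1.24 (SE 0.32, limma adjusted p = 0.0207). The lower count was 2 without KL2, KH1 or KH4, and the higher count was 5 without WH2. Both counts were 2 without the arrays holding muscle transcripts, when Cxcl9 lost its call.

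Genes of mesothelium, the cell layer that covers visceral fat, fell with the diet in knockout fat. Upk3b read 11.55, 11.36, 10.26 and 11.53 in wild-type low fat and 10.78, 10.93, 11.09 and 11.61 in wild-type high fat arrays. It read 11.33, 11.22, 11.30 and 11.11 in knockout low fat and 9.02, 9.82, 10.24 and 9.50 in knockout high fat arrays, which lay below all others. The interaction was -1.52 (SE 0.40, limma adjusted p = 0.021), and this call ended on the linear scale and without the arrays holding muscle transcripts. In the list, 11 of 13 fell in knockout (13.5% of all genes tested did) and 1 fell in wild type (15.2%). For the interaction 4 of 13 were called lower, with a median of -1.61, and all 13 had an interaction below 0. The mean log2 value of 5 mesothelial markers was 6.89 to 8.13 in knockout high fat arrays and 8.10 to 9.47 in the others. The count was 1 without any one of KL1, KL2, WH1, WH3, WH4, KH1 and KH4. Without KL3 it was 2. It was 0 without the muscle-bearing arrays and on the linear scale. How much mesothelium each dissected piece held was not measured.

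Some clock genes fell more in knockout fat, with 3 of 17 called lower and 1 higher (median 0.03). Over all genes tested 7.87% were called lower and 5.12% higher. The higher call, of Npas2, a partner of the activator BMAL1, had an interaction of 1.81 (SE 0.55, limma adjusted p = 0.0418) and ended without any of 12 arrays in turn. Per2, a repressor in the clock loop, read 9.54 to 10.10 in wild-type low fat, 9.50 to 10.21 in wild-type high fat, 10.05 to 10.84 in knockout low fat and 9.19 to 9.40 in knockout high fat arrays. Its interaction was -1.13 (SE 0.26, limma adjusted p = 0.00961), while its probe sets ran from -1.13 to -0.06. Per3 was at -0.99 (SE 0.23), with probe sets from -0.99 to 0.18, and Hlf, an output factor of the clock, at -1.20 (SE 0.29). The calls of Per2, Hlf and Npas2 ended without the arrays holding muscle transcripts, when 1 lower call was left, and that of Per3 with the mean of its probe sets. The time of day at which fat was taken is not stated in the labels.

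Of 21 matrix proteases and inhibitors 4 had a lower and 2 a higher interaction, with a median of -0.11. Mmp9, a gelatinase, fell by 1.94 in knockout fat (interaction -1.58, SE 0.33), although its probe sets ran from -1.58 to 0.23. Mmp3, a stromelysin, rose in both genotypes and more in knockout (interaction 0.81, SE 0.21). The Mmp9 call ended with the mean of its probe sets, and both calls ended without the muscle-bearing arrays, when 1 lower and 0 higher calls were left. The higher count was 1 without any of 9 arrays in turn. No call was made by limma among 18 genes of the sirtuins and NAD metabolism, 22 of the unfolded protein response, 13 of caspases and the inflammasome or 17 of skeletal muscle. Leaving out single arrays gave up to 2 calls in the sirtuin and in the unfolded protein lists and at most 1 in the others, and on the linear scale 4 inflammasome genes were called. The thermogenic uncoupling protein Ucp1 fell in both genotypes, by 3.65 in wild-type and 4.44 in knockout fat. Its interaction was -0.79, with a 95% confidence interval of -3.23 to 1.65 (limma adjusted p = 0.68), so that a difference of over 1 log2 unit in either direction lies within the interval.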

How the data were processed

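RNA from mouse white fat was hybridised to 16 Affymetrix whole-genome arrays. Genotype and diet came from the labels and gave 4 groups of 4. The authors deposited 1 log2 value for every probe set and array. The submitters' processing notes name GCRMA 2.20.0 and R 2.11.1. What else was done to the scans is not stated in the sources at hand. Of 45037 probe sets, those with 1 gene symbol gave 18193 genes, each represented by its probe set with the highest mean. To be tested, a gene had to reach a log2 value of 4 in 4 arrays or more, which 12078 did. Group means were fitted with limma 3.58.1 in R 4.3.3, and the interaction and the diet change in each genotype were read from it with two-sided moderated tests at an adjusted p of 0.05. The design has no slide or scan labels to test as a batch.

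The 42 gene lists held 875 entries, of which 792 matched directly and 9 through an older symbol. The other 74 were not analysed here, and 724 were tested. They are described by counts and medians with no set test. The members, lists and tests were chosen with earlier results of these data known. Genes named were the 12 with the largest interaction in each direction and the 8 with the largest opposite diet changes, among called genes with a highest group mean of 6 or more and no provisional symbol, up to 4 called members of each list, and Sirt1; not every one is printed, and other list members are named beside their list's count. Alternatives changed the filter, the floor, the variance model, array weights, scaling, probe sets, threshold and scale, added a replicate block, or dropped 1 array at a time. Leaving out the 5 arrays with muscle transcripts was added after the data were seen. The fit was tested on simulated data with known changes.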

Additional observations from a re-analysis of the deposited data

Results flagged for a closer look

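The 1569 interaction calls are themselves a difference between the diet changes of the 2 genotypes, tested as the interaction term.

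Among 408 sets of 4 arrays, for the genes examined, 26 had 1 array that stood apart from the other 3 by Dixon's criterion at the 95% level, where chance gives about 1 in 20 sets. In wild-type low fat fat these were Olr1 in replicate 2 (2.98, others 2.41 to 2.49), Ifit1 in replicate 3 (7.86, others 7.20 to 7.28), Upk3b in replicate 3 (10.26, others 11.36 to 11.55), Ankrd29 in replicate 4 (6.87, others 5.77 to 5.89), Acta2 in replicate 4 (13.08, others 12.02 to 12.07) and Ucp1 in replicate 4 (7.80, others 10.05 to 10.35). In wild-type high fat fat, replicate 1 stood apart for Gpr50 (3.07, others 7.28 to 7.83), Sfrp5 (11.68, others 12.07 to 12.14) and Cd209a (5.80, others 6.61 to 6.75). Replicate 4 of that group, which held urothelial transcripts, stood apart for Shisa9 (5.60, others 2.54 to 2.99) and Mogat2 (4.67, others 5.61 to 5.74).

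In knockout low fat fat replicate 1 stood apart for Wnt5b (5.35, others 6.21 to 6.25). Replicate 2 did so for Inhbb (11.22, others 9.93 to 10.12), Gabrr2 (9.05, others 9.68 to 9.71), Fzd2 (9.18, others 8.29 to 8.37) and Ankrd29 (7.80, others 8.50 to 8.61). Replicate 3 stood apart for S100a7l2 (1.55, others 1.88 to 1.90), Msr1 (6.57, others 6.32 to 6.35) and Col5a3 (9.97, others 10.44 to 10.51). For replicate 4 these were Hmga2 (5.03, others 4.51 to 4.59), Cd209b (7.88, others 8.40 to 8.48), H2-Aa (11.88, others 12.19 to 12.21) and Axin2 (8.40, others 7.47 to 7.61). In knockout high fat fat replicate 2 stood apart for Lcn2 (10.09, others 10.92 to 11.03), Ifit3 (9.34, others 8.71 to 8.81) and Hlf (5.98, others 5.39 to 5.43). Shisa9, a brain-type regulator of glutamate receptors, had an interaction of 3.31 (SE 0.70), and its call ended without the arrays holding muscle transcripts.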

How the results depend on the processing

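The direction of all 1569 calls was the same in each leave-one-out fit, with array weights, with the median centring, with the replicate block and without the 5 arrays holding muscle transcripts. On the linear scale 1558 had the same sign. The calls were selected in the main fit and these fits reuse its arrays, so that like signs were likely beforehand. The number of calls moved by more than 1.5 times in these cases. With array weights 2481 genes were called, 1113 of them higher in knockout. At an adjusted p of 0.01 there were 576, with 171 higher and 405 lower. Without the arrays holding muscle transcripts there were 424, with 106 higher and 318 lower, and whether the smaller number of arrays or the transcripts lowered the count cannot be told apart. Testing every probe set gave 1077 genes higher in knockout. Leaving out 1 array at a time gave 1098 to 2382 calls, 376 to 1183 higher and 711 to 1199 lower. The linear scale gave 1623 calls and the floor at 4 gave 1638.

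The replicate number did not pair the arrays: after subtraction of group means, the 24 same-numbered pairs had correlations between -0.321 and 0.199. Of these 5 lay over 0.1, and 0 arrays correlated best with their own number. With the replicate number as a block 1390 genes were called, 1302 of them also called without it.

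Sirt1, which was not called, changed the sign of its interaction. It was 0.012 with the median centring, 28.9 on the linear scale and 0.15 without the muscle-bearing arrays. Leaving out 1 array at a time gave -0.183 (without WL2) to 0.114, with values above 0 when WL3, KL1, KL3, WH2, WH3 or KH1 was left out. The cause was not tested. Under a log2 value of 4 differences rest on background correction, and 187 called genes had a group mean in that range.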

Other observations

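Some called genes lay outside the groups described above. Kcnk3, a potassium channel that limits the response of fat cells to adrenergic signals, had an interaction of 1.26 (SE 0.30, limma adjusted p = 0.0123), falling by 0.72 in wild type with a diet change of 0.54 in knockout. Its call ended without the arrays holding muscle transcripts. Of 12 tested brown and beige fat genes Kcnk3 was the 1 higher call (5.12% of all genes tested). The 1 lower call (7.87%) was Dio2, at -1.66 (SE 0.50), and the list median was -0.09. The Dio2 call ended without any of 10 arrays in turn and with values under 4 set to 4. S100b, a calcium-binding protein of adipocytes and Schwann cells, rose by 2.02 in wild-type fat, with a diet change of -0.46 in knockout (interaction -2.47, SE 0.24, limma adjusted p = 1.96e-05). Sod3, the extracellular superoxide dismutase, rose by 1.15 in wild type and had an interaction of -0.86 (SE 0.19), while Srxn1, which repairs oxidised peroxiredoxins, rose by 1.21 in knockout and had one of 0.88 (SE 0.23). Cyp2e1, a cytochrome P450 that oxidises small molecules, had diet changes of -0.72 in wild type and -1.52 in knockout (interaction -0.81, SE 0.21). The calls of Srxn1 and Cyp2e1 ended without the arrays holding muscle transcripts, and that of Cyp2e1 also on the linear scale. Of 22 tested glutathione and redox genes 1 was called higher and 2 lower. Among 12 cytochrome P450 genes 1 was called higher and 3 lower. Over all genes tested 5.12% were called higher and 7.87% lower. Rab27b, which directs the release of vesicles, had an interaction of -4.40 (SE 1.08), with wild-type high fat replicate 4 at 11.44 and the other 3 arrays of that group at 7.18 to 8.19. Its call ended on the linear scale and without the arrays holding muscle transcripts.

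The first principal component of the 16 arrays held 50.7% of the variance and the second 14.4%. Scores on the first were -55.4 to -47.4 in wild-type low fat and -19.0 to -5.76 in knockout low fat arrays. They were 3.35 to 24.0 in wild-type high fat and 43.4 to 55.5 in knockout high fat arrays. Scores on the second were 12.5 to 32.2 in knockout high fat arrays and 27.4, -5.75, 34.6 and 4.60 in wild-type low fat arrays. They were -19.5, -22.4, -18.2 and 0.36 in knockout low fat arrays and -22.3, -11.6, -21.1 and -17.3 in wild-type high fat arrays.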
